A study of Mus musculus with 6 samples.

Results

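The 10 genes described here encode proteins of the BCL2 family, which sets whether a cell keeps or loses the integrity of its mitochondria. They were taken by gene symbol from a table of 23413 genes, and each of the 10 symbols matched 1 row. The RNA was that of bone marrow hematopoietic stem cells (HSCs) of wild-type mice, divided by sorting into F4/80 positive cells (3 libraries) and F4/80 negative cells (3 libraries). F4/80 is a surface protein that marks macrophages, and the series title places the work in the context of trogocytosis, the transfer of membrane between cells, associated with the receptor c-Kit. Each library was made from 2000 to 5000 sorted cells. The labels give neither the gate used for the sort nor the age and sex of the mice. Nor is it stated whether replicates stem from different animals, and the p-values below therefore reflect a spread among libraries that may be technical only.

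Proteins of this family fall into 3 classes. Survival proteins (Bcl2, Bcl2l1 and Mcl1 here) hold the pore-forming effectors Bax and Bak1 in check at the mitochondrial outer membrane. BH3-only proteins (Bcl2l11, Bid, Bbc3, Pmaip1 and Bmf here) bind the survival proteins, and some of them also activate the effectors directly. Once the effectors form pores, cytochrome c leaves the mitochondria and caspases are activated. In the mouse, hematopoietic stem cells require Mcl1 to survive, and forced expression of Bcl2 enlarges the stem cell pool.

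The segment that brings these proteins together is the BH3 domain, a short helix that fits into a groove of the survival proteins. A search of the coding sequences for its core, defined as a leucine codon, any 3 codons, a glycine or alanine codon and an aspartate codon, found it in all 10 genes, against 23.9% of 21584 mouse coding sequences. The search used the forward reading frame of the longest coding sequence per gene in GENCODE vM21. The 10 genes were listed as members of this family, so their matches describe the list and are not a test. The 18 bases of the core are printed in capitals with 12 bases before and 6 after, because every member encodes the pattern. Pmaip1 held 2 matches and is not printed.
Bcl2: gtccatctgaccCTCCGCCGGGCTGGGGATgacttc
Bcl2l1: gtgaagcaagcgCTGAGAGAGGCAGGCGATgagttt
Mcl1: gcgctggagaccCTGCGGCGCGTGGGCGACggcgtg
Bax: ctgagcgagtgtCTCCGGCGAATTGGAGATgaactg
Bak1: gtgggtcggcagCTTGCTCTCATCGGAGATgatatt
Bcl2l11: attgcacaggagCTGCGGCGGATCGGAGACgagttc
Bid: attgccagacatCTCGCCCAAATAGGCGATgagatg
Bbc3: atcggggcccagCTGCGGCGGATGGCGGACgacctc
Bmf: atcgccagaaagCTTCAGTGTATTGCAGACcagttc
The codon before the last one of the core encodes glycine in 7 of these 9 genes and alanine in Bbc3 and Bmf. The cores of Bcl2l11 and Bbc3 were the most alike, with 15 of 18 bases identical. Those of Bcl2l1 and Bmf were the least alike, with 5 of 18 bases identical.

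Total counts were between 18637526 and 21042379 per library, and levels are given as CPM, counts scaled to a common library size. The sorted cells carried all 9 stem cell markers checked, and 6 of them, Procr and Ly6a included, were lower in F4/80 positive libraries. With the replicate block 7 of the 9 were lower. Of 17 macrophage markers 16 were tested and all 16 were higher. They include Adgre1, the gene of F4/80, so its result is not independent of the sort. Timd4, Fcgr1 and Siglec1 would not have passed the filter on low counts by their negative libraries alone. The list summed to 482 to 1029 CPM in positive libraries, against 127 to 139 CPM in negative ones. The remaining marker, Marco, had 9, 9 and 1 counts in positive replicates 1 to 3 and was at 0 in all negative libraries. All 14 markers of cycling cells were higher, with sums of 5055 to 5392 CPM in positive libraries, against 2342 to 3012 CPM in negative ones. Immediate early genes, a list drawn up after values were seen, summed to 972 CPM in positive replicate 3 and 2268 CPM in negative replicate 3, against 233 to 306 CPM in the other libraries. The libraries numbered 3 stand apart by this list, and results without both of them are given below. Megakaryocyte markers, of which 5 of 7 were higher, summed to 1334 to 1852 CPM in positive libraries, against 537 to 643 CPM in negative ones. None of 7 neutrophil markers passed, and their sum was 361 to 482 CPM in positive libraries and 132 to 887 CPM in negative ones, highest in negative replicate 2. None of 6 tested B cell markers passed in edgeR or DESeq2, and 3 were lower at an unadjusted p below 0.05 and with the replicate block. Without both libraries numbered 3, 3 were lower. Their log2 fold changes ran from -2.71 to -0.13, with a median of -2.27. The list summed to 51.6 to 77.2 CPM in positive libraries and 59.0 to 101 CPM in negative ones. Most of this sum was Cd79b, at 47.5 to 69.9 CPM in positive and 56.7 to 72.8 CPM in negative libraries. Of the T and NK cell markers Nkg7 was higher and Klrb1c lower, and Cd3d, Cd3e and Cd3g were at 0 in all positive libraries. The list summed to 294 to 302 CPM in positive libraries and 100 to 157 CPM in negative ones. Nearly all of this sum was Nkg7, at 292 to 301 CPM in positive and 92.5 to 148 CPM in negative libraries. The other genes of the list were lower in the positive libraries. Of 7 erythroid markers 1, Hbb-bt, was lower, and their median log2 fold change was 0.65. DESeq2 and the replicate block each called 1 of them higher and 1 lower. The list summed to 24.4 to 54.3 CPM in positive libraries and 25.6 to 59.8 CPM in negative ones. In bulk samples fewer cells of a type and less RNA per cell cannot be told apart, and the part of these other cell types and of the cell cycle in the results below was not tested.

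F4/80 positive libraries held more Bcl2 and Bcl2l1 RNA and less Mcl1 RNA than F4/80 negative libraries. The Mcl1 groups overlapped, and DESeq2 did not call Mcl1 (adjusted p = 0.054). When each of the 6 libraries was left out in turn, Bcl2 lost its call in 3 fits, Bcl2l1 in 6 and Mcl1 in 5. Among the BH3-only genes Pmaip1 was higher and Bmf lower, both at low levels, and Bcl2l11, Bid and Bbc3 did not pass the test. Neither effector gene passed it. In all, 3 of 10 members, Pmaip1 included, were higher and 2 of 10, Bmf included, were lower. The threshold was a Benjamini-Hochberg adjusted p below 0.05 over 14451 tested genes (edgeR, quasi-likelihood F-test). Across all tested genes 9.65% were higher, 10.9% lower and 20.5% either. The median log2 fold change of the 10 members was 0.17, beside -0.03 over all tested genes. All 10 members passed the filter on low counts, Pmaip1 only through the positive libraries, where it is high. Bmf met the filter's minimum in every negative library, where it is high, but not in positive replicate 3. Of the 9 members other than Pmaip1, 2 were higher and 2 lower, Bmf included, with a median log2 fold change of 0.06. The calls of Pmaip1 and Bmf are descriptions. Apart from these, all calls were in the 3 survival genes, of which 2 were higher and 1 lower. The groups did not overlap for 6 members, a state found in 40.6% of tested genes.

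**Figure D1:**
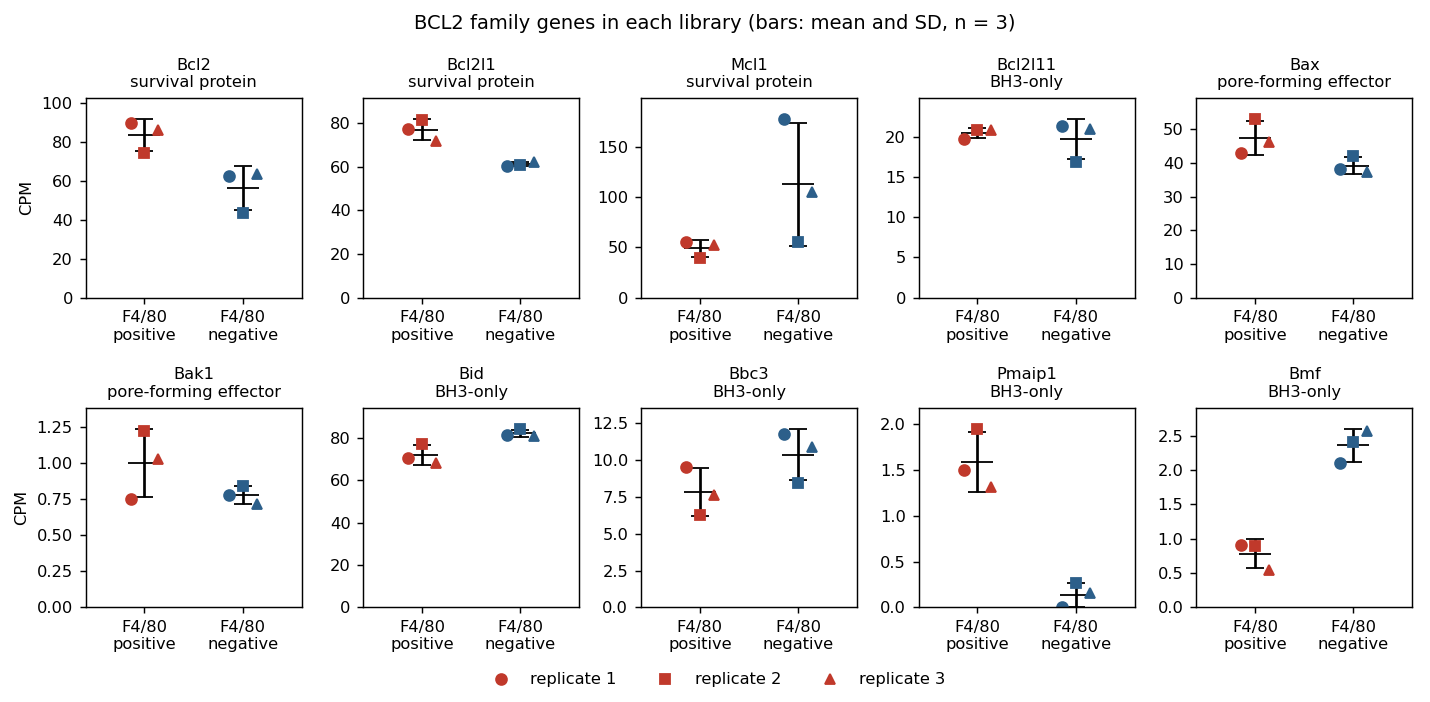
CPM of each of the 10 genes in the 3 F4/80 positive (red, left) and 3 F4/80 negative (blue, right) libraries, with symbols for the replicate number and bars for mean and SD. Bcl2, Bcl2l1 and Pmaip1 lie higher in every positive library, Bmf lies lower, and Mcl1 spreads from 55.1 to 177 CPM among the negative libraries.

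Bcl2, the founding survival protein of the family (ENSMUSG00000057329, GRCm39 chromosome 1, 106465908 to 106642004, minus strand), measured 89.8, 74.0 and 86.0 CPM in positive replicates 1 to 3 and 62.4, 43.3 and 63.6 CPM in negative replicates 1 to 3. The groups did not overlap, and replicate 2 was the lowest of both. Positive libraries averaged 83.3 ± 8.25 CPM and negative libraries 56.4 ± 11.4 CPM (SD, n = 3 each), a 1.48-fold rise with a log2 fold change of 0.56 (SE 0.15, edgeR adjusted p = 0.0357). The call was lost without positive replicate 1 (edgeR adjusted p = 0.107), positive replicate 2 (0.0523) or positive replicate 3 (0.107), and with library totals in place of composition factors (0.0605).

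Bcl2l1, which encodes the survival protein BCL-XL (ENSMUSG00000007659, GRCm39 chromosome 2, 152622588 to 152673648, minus strand), measured 77.5, 81.4 and 71.9 CPM in positive replicates 1 to 3. In negative replicates 1 to 3 it measured 60.5, 60.9 and 62.1 CPM. The negative libraries lay within a narrow band and every positive library was above it. The rise was the smallest among the 5 called members, 1.26-fold, with a log2 fold change of 0.33 (SE 0.09, edgeR adjusted p = 0.032). This call did not survive the loss of any single library. The edgeR adjusted p was 0.0854, 0.0985 and 0.0608 without positive replicates 1 to 3 and 0.0713, 0.0507 and 0.0658 without negative replicates 1 to 3, and with no composition factor it was 0.0717.

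Mcl1, a short-lived survival protein (ENSMUSG00000038612, GRCm39 chromosome 3, 95566099 to 95570487, plus strand), measured 55.5, 39.3 and 52.5 CPM in positive replicates 1 to 3. In negative replicates 1 to 3 it measured 177, 55.1 and 105 CPM. The positive libraries were close to each other, whereas the negative ones spread over a wide range, and negative replicate 2 fell just below positive replicate 1. Within each same-numbered pair the positive library was the lower. Positive libraries averaged 49.1 ± 8.64 CPM and negative libraries 112 ± 61.0 CPM (SD, n = 3 each), with a log2 fold change of -1.19 (SE 0.35, 95% interval -1.99 to -0.39, edgeR adjusted p = 0.0434). Leaving out negative replicate 1 reduced the log2 fold change to -0.70 (edgeR adjusted p = 0.0993), and leaving out negative replicate 2 gave -1.51 (0.0052). DESeq2 did not call the gene (adjusted p = 0.054), nor did edgeR once negative replicate 3 was left out (0.0971), or positive replicates 1 (0.0945), 2 (0.142) or 3 (0.112).

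Since counts of genes of different length are not comparable, levels between members are given as the authors' FPKM, fragments per kilobase of transcript scaled to library size. Bcl2, Bcl2l1 and Mcl1 together summed to 42.9, 37.0 and 40.6 FPKM in positive replicates 1 to 3 and to 70.6, 34.0 and 50.6 FPKM in negative replicates 1 to 3. The sum overlapped between the groups because negative replicate 2 had the lowest value of all. The Mcl1 and Bcl2 shares of it did not overlap between the groups, and the Bcl2l1 share did. Mcl1 contributed 37.8%, 30.8% and 38.0% of the sum in positive replicates 1 to 3 and 72.1%, 47.3% and 60.0% in negative replicates 1 to 3. Bcl2 contributed 22.6 ± 0.820% in positive and 12.3 ± 2.43% in negative libraries (SD, n = 3 each). Bcl2l1 contributed 39.3%, 47.6% and 38.8% in positive replicates 1 to 3 and 18.4%, 38.9% and 26.4% in negative replicates 1 to 3, so that negative replicate 2 was just above positive replicate 3. These shares are descriptions without a test.

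**Figure D2:**
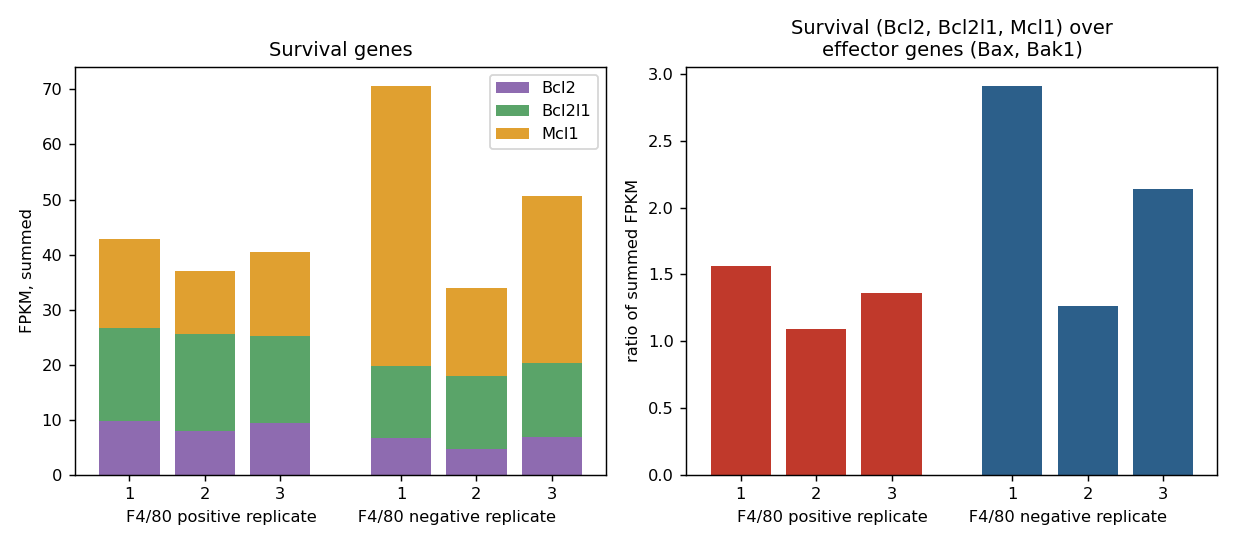
Left, FPKM of Bcl2, Bcl2l1 and Mcl1 stacked for each F4/80 positive and negative library. Right, the ratio of that sum to the summed FPKM of Bax and Bak1, which is 1.09 to 1.56 in positive and 1.26 to 2.91 in negative libraries.

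The promoters of Bcl2 and Mcl1 are shown because each has 1 annotated start and the genes moved in opposite directions. Both windows are the 250 bases before the start in RefSeq for GRCm38.p6, an older build than that of the counts, 5′ to 3′ on the gene's strand. Capitals mark matches, on either strand, to the GC box GGGCGG, the ETS core CCGGAAG and the cyclic AMP response core TGACG, and no matches overlap in these windows.
Bcl2, chr1:106714291-106714540, minus strand: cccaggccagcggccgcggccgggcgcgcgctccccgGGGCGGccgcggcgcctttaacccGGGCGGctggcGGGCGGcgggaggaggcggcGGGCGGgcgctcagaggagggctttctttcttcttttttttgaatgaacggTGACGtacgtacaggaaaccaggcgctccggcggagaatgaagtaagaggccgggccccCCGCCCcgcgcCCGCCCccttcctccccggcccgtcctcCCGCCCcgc
Mcl1, chr3:95658471-95658720, plus strand: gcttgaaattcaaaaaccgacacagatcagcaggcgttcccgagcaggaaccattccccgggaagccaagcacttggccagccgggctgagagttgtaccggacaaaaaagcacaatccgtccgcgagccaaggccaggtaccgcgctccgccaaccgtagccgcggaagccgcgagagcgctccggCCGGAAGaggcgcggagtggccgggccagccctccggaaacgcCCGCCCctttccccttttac
The Bcl2 window holds 7 GC boxes and 1 cyclic AMP response core, and the Mcl1 window 1 GC box and 1 ETS core. Among 32851 windows of the same length 32.7% hold the GC box, 6.91% the ETS core and 17.8% the cyclic AMP response core. Of the 16 windows of the 9 members with a match in the promoter table, 9 hold a GC box. The forkhead core TAAACA occurs in 2 of the 16, a window of Bcl2l11 and one of Bbc3, a share close to the 12% of all windows. G and C make up 74.8% of the Bcl2 window and 64.4% of the Mcl1 window, against a median of 52.4%. A match is a description of these letters and was not tied to the counts.

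The effector genes did not pass the test. Bax, which forms mitochondrial pores once activated (ENSMUSG00000003873, GRCm39 chromosome 7, 45111121 to 45116322, minus strand), measured 43.0, 53.0 and 46.3 CPM in positive replicates 1 to 3 and 38.3, 42.2 and 37.2 CPM in negative replicates 1 to 3. Every positive library was above every negative one, by a small margin between positive replicate 1 and negative replicate 2. The log2 fold change was 0.27 (SE 0.12, 95% interval 0.01 to 0.54), with an unadjusted p of 0.0422 and an edgeR adjusted p of 0.125. Bak1, the partner effector (ENSMUSG00000057789, GRCm39 chromosome 17, 27238784 to 27247983, minus strand), had only 14, 22 and 21 counts in positive and 16, 16 and 14 counts in negative replicates 1 to 3. The groups overlapped. At this depth its interval ran from -0.58 to 1.3 on the log2 scale (edgeR adjusted p = 0.576), and a difference within it was not detectable. Counts of Bak1 and of Ggnbp1, which overlaps it on the opposite strand with 4 to 11 counts per library, may be mixed where strand was not used.

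Set against the effectors, the survival genes gave a ratio of summed FPKM of 1.56, 1.09 and 1.36 in positive replicates 1 to 3 and of 2.91, 1.26 and 2.14 in negative replicates 1 to 3. The positive library had the lower ratio in each same-numbered pair, and the groups overlapped. Nearly all of the effector sum was Bax, with mean FPKM of 30 in positive and 24.7 in negative libraries. Bak1 had 0.415 and 0.321. The ratios of the negative libraries had the order of their Mcl1, at 50.9, 16.1 and 30.4 FPKM in replicates 1 to 3. For the pair Bcl2 over Bax the ratio was 0.360, 0.240 and 0.320 in positive replicates 1 to 3 and 0.280, 0.177 and 0.294 in negative replicates 1 to 3. Here the positive library had the higher ratio in each pair.

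Pmaip1, which encodes NOXA, a BH3-only protein that binds MCL1 (ENSMUSG00000024521, GRCm39 chromosome 18, 66591604 to 66598636, plus strand), had 28, 35 and 27 counts in positive and 0, 5 and 3 counts in negative replicates 1 to 3. Its transcript was rare in both groups, at 1.5, 1.95 and 1.32 CPM in positive replicates 1 to 3 against 0, 0.262 and 0.154 CPM in negative replicates 1 to 3, where 3 counts, the limit that a count of 0 allows, correspond to 0.146 to 0.157 CPM. The sums over the groups were 90 counts in positive and 8 counts in negative libraries. Since only the positive libraries carried the gene past the filter on low counts, and the negative ones lay near that limit of 3 counts, the fitted values are a description. The fitted log2 fold change was 3.48 (SE 0.73, 95% interval 1.81 to 5.14, edgeR adjusted p = 0.0134), and it was 2.89 without negative replicate 1 and 4.29 without negative replicate 2. The call was lost without negative replicate 3 (edgeR adjusted p = 0.052) or positive replicate 2 (0.058).

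Bmf, a BH3-only protein held on the cytoskeleton through a dynein light chain (ENSMUSG00000040093, GRCm39 chromosome 2, 118359238 to 118380168, minus strand), had 17, 16 and 11 counts in positive and 43, 46 and 50 counts in negative replicates 1 to 3. The groups were well apart, with 0.911, 0.890 and 0.538 CPM in positive replicates 1 to 3 and 2.10, 2.41 and 2.57 CPM in negative replicates 1 to 3. The filter's minimum of 10 counts is scaled to library size, and the 11 counts of positive replicate 3 fell just short of it. The negative libraries alone would have carried Bmf past the filter, and the positive ones alone would not. Its fitted values are therefore a description. Bmf was 3.02-fold lower in positive libraries, with a log2 fold change of -1.59 (SE 0.38, edgeR adjusted p = 0.0212). It lost its call without negative replicate 3 (edgeR adjusted p = 0.0651) or positive replicates 1 (0.0573), 2 (0.060) or 3 (0.074).

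The other BH3-only genes were more abundant and did not pass the test. Bid, which caspase 8 cleaves to link death receptors to mitochondria (ENSMUSG00000004446, GRCm39 chromosome 6, 120868891 to 120893814, minus strand), measured 70.6, 77.3 and 68.1 CPM in positive replicates 1 to 3 and 81.3, 84.2 and 80.9 CPM in negative replicates 1 to 3. No positive library reached the lowest negative one, and the log2 fold change was -0.19 (SE 0.09, edgeR adjusted p = 0.159). Bid overlaps Bcl2l13 on the opposite strand by 913 bases, and Bcl2l13 had 2025 to 2638 counts per library, so the split of reads between them is uncertain.

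Bbc3, which encodes PUMA, a target of p53 (ENSMUSG00000002083, GRCm39 chromosome 7, 16042318 to 16052130, plus strand), measured 9.54, 6.29 and 7.63 CPM in positive replicates 1 to 3 and 11.8, 8.44 and 10.9 CPM in negative replicates 1 to 3. The groups overlapped, although the positive library was lower in each same-numbered pair, and replicate 2 was the lowest of both groups, as for Bcl2 and Mcl1. Its log2 fold change was -0.41 (SE 0.22, 95% interval -0.92 to 0.10, edgeR adjusted p = 0.227). Bcl2l11, which encodes BIM, a BH3-only protein that opposes all survival proteins described here (ENSMUSG00000027381, GRCm39 chromosome 2, 127967958 to 128004467, plus strand), measured 19.8, 20.9 and 20.9 CPM in positive and 21.3, 16.9 and 21.0 CPM in negative replicates 1 to 3. The groups overlapped. Its interval ran from -0.27 to 0.38 on the log2 scale (edgeR adjusted p = 0.811), and the log2 fold change of 0.06 turned to -0.02 with no composition factor and to -0.03 without negative replicate 2.

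**Figure D3:**
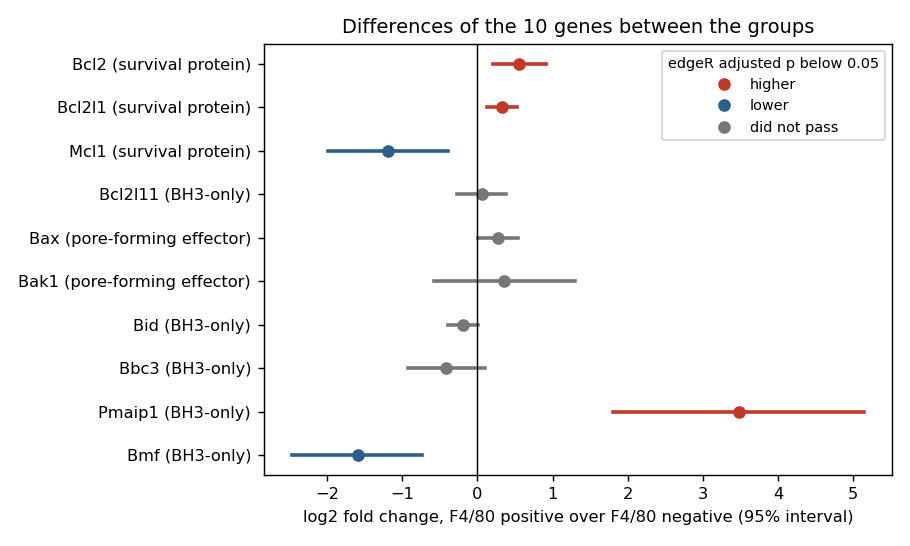
Log2 fold change of each of the 10 genes, F4/80 positive over F4/80 negative, with 95% intervals from the edgeR fit, red for higher, blue for lower and grey for genes that did not pass. Pmaip1 has the widest interval, 1.81 to 5.14, and Bcl2l11 lies closest to 0.

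In order of FPKM, positive libraries had Bax first with 30 ± 3.09, then Bid with 20.2 ± 1.22, Bcl2l1 with 16.7 ± 0.937, Mcl1 with 14.3 ± 2.59 and Bcl2 with 9.08 ± 0.941 (SD, n = 3). The libraries' ranges of Bcl2l1 and Mcl1 overlapped. Bcl2l1 was above Mcl1 in each positive library, with 16.9 and 16.2 FPKM in replicate 1, 17.6 and 11.4 in replicate 2, and 15.7 and 15.4 in replicate 3. Their order was not tested. Negative libraries had Mcl1 first with 32.4 ± 17.5 FPKM, then Bax with 24.7 ± 1.77, Bid with 22.9 ± 0.627, Bcl2l1 with 13.2 ± 0.196 and Bcl2 with 6.10 ± 1.20 (SD, n = 3). There the ranges of Mcl1 and Bax, of Bax and Bid, and of Bcl2 and the next gene Bbc3 overlapped. Bbc3 and Bcl2l11 followed in both groups, between 2.09 and 5.48 FPKM per library. Bak1, Bmf and Pmaip1 were below 1 FPKM in every library, and among them Pmaip1 ranked above Bmf in positive libraries and below it in negative libraries.

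**Figure D4:**
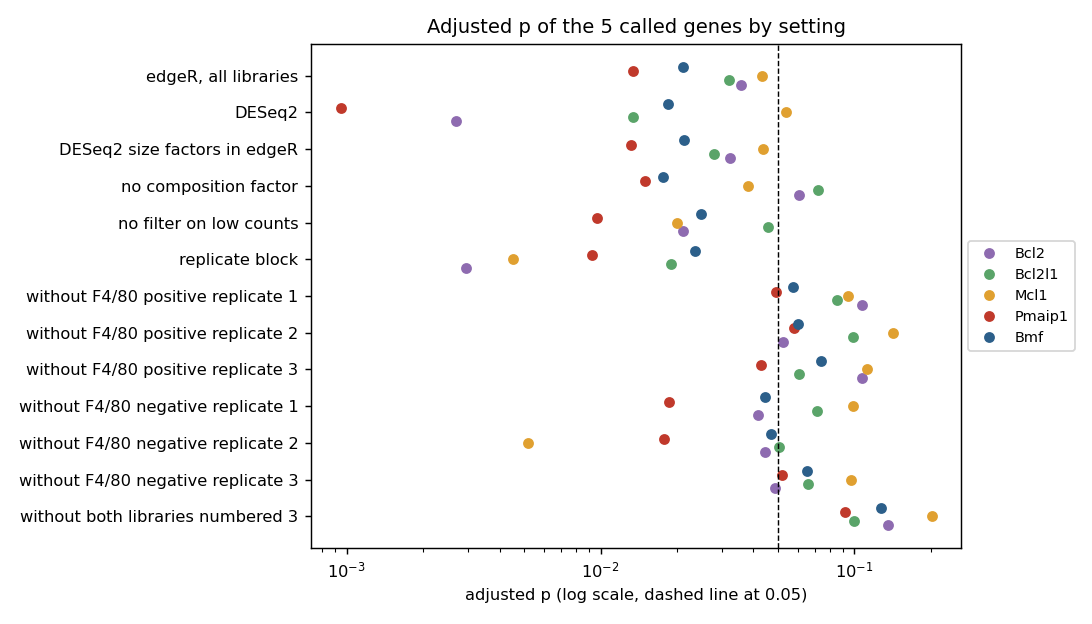
Adjusted p of the 5 called genes, on a log axis with a dashed line at 0.05, under edgeR with all libraries and under each alternative. Points lie mostly left of the line where all libraries were kept and right of it where libraries were left out.

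With the replicate number as a block, all 5 called members stayed past the threshold and no other member passed it, with edgeR adjusted p of 0.00294 for Bcl2, 0.0189 for Bcl2l1, 0.0045 for Mcl1, 0.00924 for Pmaip1 and 0.0235 for Bmf. Without both libraries numbered 3, an alternative added after seeing the data, no member passed edgeR's adjusted threshold (2 libraries per group), while 3 were higher and 2 lower at an unadjusted p below 0.05. The log2 fold changes then were 0.63 for Bcl2, 0.39 for Bcl2l1, -1.29 for Mcl1, 3.69 for Pmaip1 and -1.32 for Bmf.

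Other genes of cell death moved in both directions. Of 65 genes listed in 5 groups 61 were in the table and 54 were tested, of which 3 were higher and 5 lower, and their median log2 fold change was -0.04, beside -0.03 over all genes. The background was 9.65% higher and 10.9% lower. The replicate block gave 9 higher and 8 lower of the 54, where 14.6% of all tested genes were higher and 16.8% lower.

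**Figure D5:**
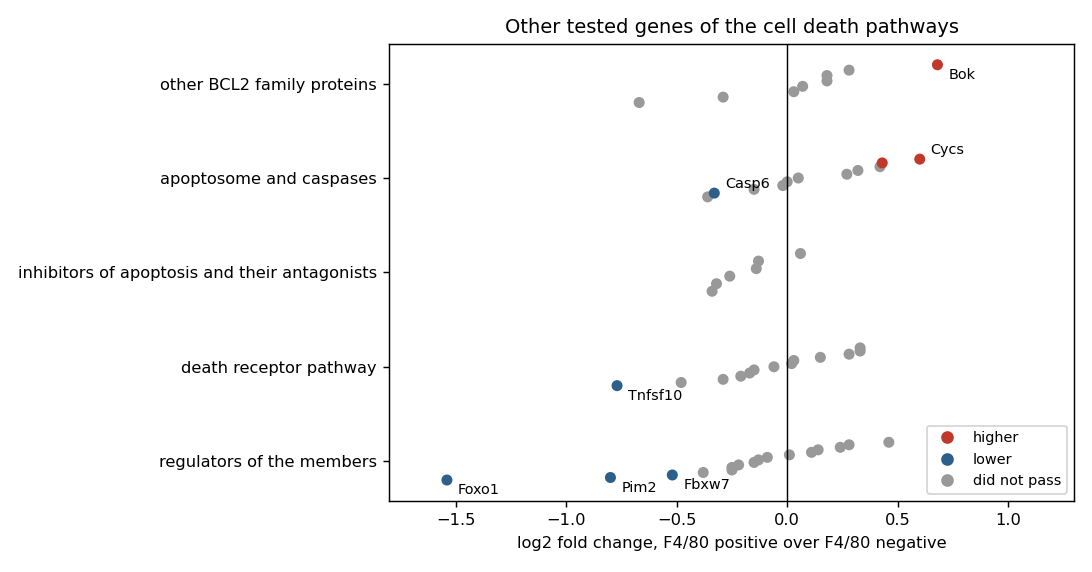
Log2 fold change, F4/80 positive over F4/80 negative, of the 54 other tested genes in 5 groups, one point per gene, with called genes in red (higher) or blue (lower) and those described in the text named. Most points lie close to 0, and Foxo1 lies farthest from it, at -1.54.

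Among 8 tested further family proteins, Bok, a relative of the effectors, was higher and 0 were lower, against 2 lower at an unadjusted p below 0.05 in edgeR and 0 lower by DESeq2 at its adjusted p. Bok measured 10, 11.5 and 8.81 CPM in positive and 6.45, 7.18 and 5.29 CPM in negative replicates 1 to 3. The log2 fold change was 0.68 (SE 0.21, edgeR adjusted p = 0.0483). Its call was lost without any single library except negative replicate 2 (edgeR adjusted p of 0.0724 to 0.151), with no filter (0.0619) and with no composition factor (0.0688). The Bcl2a1 genes, survival proteins of myeloid cells, were not tested because of low counts, and since they are near-identical copies the split of reads between them is uncertain. Bcl2a1b had 12, 6 and 13 counts in positive and 0, 2 and 1 counts in negative replicates 1 to 3, chosen after its values were seen. Bcl2a1a had 11, 13 and 4 counts in positive and 5, 5 and 0 counts in negative replicates 1 to 3, and its groups overlapped in CPM. Bcl2a1d went the other way in sum, with 7, 5 and 0 counts in positive and 4, 6 and 8 counts in negative replicates 1 to 3.

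Downstream of the pores, 2 of 11 apoptosome and caspase genes were higher and 1 lower. Cycs, which encodes cytochrome c, measured 161, 186 and 169 CPM in positive and 114, 139 and 88.4 CPM in negative replicates 1 to 3, a 1.51-fold rise (edgeR adjusted p = 0.0266). Casp6, an executioner caspase, was lower, with 40.8, 44.2 and 46.8 CPM in positive and 52.9, 55.7 and 57.6 CPM in negative replicates 1 to 3 (log2 fold change -0.33, edgeR adjusted p = 0.0423). In both of these the groups did not overlap. The Cycs call was lost without negative replicate 1 (edgeR adjusted p = 0.0608) or positive replicates 1 (0.0585), 2 (0.0883) or 3 (0.0733). Casp6 lost its call without any single library (0.0639 to 0.139) and with no filter (0.0853). Apaf1, which assembles with cytochrome c, had a log2 fold change of 0.42 with an edgeR adjusted p of 0.0927, and it passed with the replicate block (0.0081) and with DESeq2 (adjusted p = 0.0357). The same held for Aifm1, a mitochondrial flavoprotein, with an edgeR adjusted p of 0.0746, against 0.0219 with the block and 0.0475 by DESeq2. With the block 4 genes of this list were higher and 1 lower.

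None of 6 inhibitors of apoptosis and their antagonists passed in edgeR or DESeq2, and 1 of them, Birc2, was lower at an unadjusted p below 0.05 and passed with the replicate block (log2 fold change -0.32, edgeR adjusted p = 0.0411). In the death receptor pathway 1 of 13 was lower and 0 were higher, with 3 higher at an unadjusted p below 0.05 in edgeR and 2 higher by DESeq2. The replicate block gave 2 higher, Ripk3 (edgeR adjusted p = 0.0164) and Mlkl (0.0249) of the necroptosis pathway, and 2 lower, Tnfsf10 and the receptor gene Tnfrsf1a (0.0192). Without the block the lower gene was Tnfsf10, which encodes the death ligand TRAIL. It measured 57.5, 40.8 and 50.4 CPM in positive and 77.5, 84.8 and 90.5 CPM in negative replicates 1 to 3. The log2 fold change was -0.77 (SE 0.13, edgeR adjusted p = 0.00602). Its call held without any single library.

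Among 16 tested regulators of the family 3 were lower and 0 higher, with 2 higher at an unadjusted p below 0.05 in edgeR and 1 higher by DESeq2. The replicate block gave 2 higher, Vdac2 (edgeR adjusted p = 0.0119) and Dynll1 (0.0163), and 4 lower, with Huwe1 (0.0481) added. Pim2, a survival kinase that phosphorylates the BH3-only protein Bad, measured 57.7, 60.3 and 50.9 CPM in positive and 97.3, 99.6 and 98.1 CPM in negative replicates 1 to 3 (log2 fold change -0.80, SE 0.09, edgeR adjusted p = 0.00128), and its call held without any single library and without both libraries numbered 3. Foxo1, a forkhead transcription factor that can induce Bcl2l11, measured 8.52, 5.73 and 6.56 CPM in positive and 26.3, 11.2 and 23.1 CPM in negative replicates 1 to 3. Its log2 fold change was -1.54 (SE 0.31, edgeR adjusted p = 0.0116), and the call was lost without positive replicate 2 (0.0501) or 3 (0.0514). Fbxw7, part of a ubiquitin ligase that marks MCL1 for degradation, measured 20.4, 18.2 and 16.2 CPM in positive and 24.8, 27.3 and 26.5 CPM in negative replicates 1 to 3 (log2 fold change -0.52, edgeR adjusted p = 0.0302). It lost its call without any single library except positive replicate 1, with edgeR adjusted p of 0.0515 to 0.101.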

How the data were processed

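The labels give 3 F4/80 positive and 3 F4/80 negative libraries of total RNA. HISAT2 2.0.5, DESeq2 and the build GRCm39 (mm39) are listed, without roles, per the submitters' processing notes. Which counter, annotation and filters were used, and whether counting used strand, is not given in the sources used here. The library kit is stranded per the labels' protocols. The authors deposited raw counts per gene, which were the values tested, and FPKM per library, used for levels between genes. The authors also deposited a size-factor-normalized signal, and a log2 fold change with p-values from their own comparison. Counts were fitted in R 4.3.3 with edgeR 4.0.16: filterByExpr (minimum count 10, minimum total 15), TMM factors, glmQLFit and glmQLFTest of positive over negative libraries without covariates, with Benjamini-Hochberg adjustment over 14451 genes. CPM use TMM factors. The edgeR step was tested on simulated data. Intervals are 95% intervals of the fit, and the floor is 3 counts per library (0.146 to 0.167 CPM, counting error only). Members, gene lists and tests were chosen with earlier results of these data known.

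All 10 members are named, with the called genes of the other lists, up to 4 per direction, except 1 that is counted but not reported here. Genes that passed only in an alternative are named after their values were seen. Same-numbered libraries deviated together from their group means (correlations 0.214 to 0.284, above the limit of 0.1). The replicate numbers shared by the labels were therefore taken as pairs in the replicate block. The main fit and the fits with libraries left out did not use this pairing. DESeq2 1.42.0, its size factors, no composition factor, no filter, the replicate block and leaving out each library were the alternatives.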

Additional observations from a re-analysis of the deposited data

How the results depend on the processing

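Every called member kept its direction under all 12 alternatives, and Bcl2l11, which was not called, turned from 0.06 to -0.02 with no composition factor and to -0.03 without negative replicate 2 (-0.03 to 0.12 when single libraries were left out). Scaling by library totals shifted all genes by -0.08 at the median. The 3 higher members became 1 with no composition factor, and the 2 lower members became 1 with DESeq2. When single libraries were left out, 0 to 2 members were higher and 0 to 2 lower, with 656 to 1437 genes higher and 802 to 1612 lower among all genes, in fits with fewer libraries. For the other cell death genes these ranges were 0 to 6 higher and 2 to 4 lower. Without both libraries numbered 3, edgeR called 0 members higher, 0 lower, 0 other cell death genes higher and 1 lower, and 380 genes higher and 413 lower among all genes, against 1395 and 1572 with all libraries. The replicate block raised the counts over all genes to 2105 higher and 2429 lower and those of the other cell death genes to 9 higher and 8 lower, and it changed no call of a member. DESeq2 called 8 of these genes higher, and the fit with no composition factor called 8 lower. From raw counts, the Mcl1 share of the survival sum in positive over that in negative libraries was 0.504, against 0.594 from FPKM, and the survival to BH3-only ratio in positive over that in negative libraries was 1.02 from raw counts and 0.880 from FPKM. Within a library, counts and FPKM differ only by gene length and a common scale, so the members weigh differently in these sums. The cause of the other differences between settings was not tested. Depth limits Bak1, Bmf and Pmaip1 above all, with at most 50 counts per library. In the authors' deposited table the adjusted p was 0.0566 for Mcl1 and below 0.05 for the other 4 called members.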
